A study of Mus musculus with 4 samples.

Results

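Splicing regulators were described here as 59 of the 23996 genes in the deposited table, taken by symbol from 8 families: 11 Srsf, 20 Hnrnp, 9 Sf3a and Sf3b, 3 Rbfox, 3 Ptbp, 6 Celf, 5 Srrm and 2 Esrp genes. The Srrm entries included Srrm4os, a non-coding gene on the strand opposite Srrm4. The cells came from the cochlear epithelium of C57BL/6 mice of both sexes at postnatal day 7. All mice carried Sox2-CreER, a tamoxifen-activated Cre recombinase under Sox2 control that acts in supporting cells, CAG-loxP-stop-loxP-Atoh1-HA, which makes Atoh1 after Cre, Rosa26-tdTomato, a red reporter switched on by Cre, and the green reporter Atoh1-eGFP. Cre was activated by tamoxifen, 0.20 mg/g, injected late on postnatal day 3. Original hair cells were sorted as eGFP alone and new hair cells, induced from supporting cells, as eGFP with tdTomato, with 2 libraries in each group. The labels do not say whether these libraries came from separate or pooled animals, nor whether original hair cells were taken from tamoxifen-treated or oil-treated mice.

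Splicing removes introns from the primary transcript, and regulators decide which exons are kept. SR proteins (Srsf) bind mostly exonic enhancers and recruit the spliceosome, while hnRNP proteins (Hnrnp) coat the nascent transcript and often repress exons. The Sf3a and Sf3b complexes belong to the U2 snRNP, the particle that recognises the branch point of the intron. Rbfox, Ptbp, Celf, Srrm and Esrp proteins set tissue-specific patterns, with Srrm3 and Srrm4 promoting neuronal microexons and Esrp proteins promoting epithelial exons. In the mouse inner ear, loss of Srrm4 function in the Bronx waltzer mutant kills hair cells and causes deafness, and Esrp1 is needed for cochlear development.

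The values are FPKM (fragments counted per kilobase of transcript and relative to all mapped fragments), which are per length and can be compared between genes. The authors' table gave 1 value per gene and group, so values carry no replicate error, differences cannot be weighed against library-to-library spread, and depth is unknown. FPKM is a level of the whole gene, and exon use was not measured. Less RNA per cell and fewer expressing cells cannot be told apart in such sorted pools. Summed over all genes, FPKM was 8.87-fold higher in the original column, and the median of log2(FPKM + 1), new minus original, was -0.21 over the 9026 tested genes. Tested genes were those that reached 1 FPKM in either group and were above 0 in the other. The authors' deposited table gave 797 lower and 50 higher genes among these at an unadjusted p under 0.05. After Benjamini-Hochberg adjustment over all tested genes none passed 0.05, with 0.526 as the smallest adjusted value. Of 14 hair cell markers all were above 0 in both groups and 13 were lower in new hair cells, their sum being 35721 and 1114 FPKM. Of 13 supporting cell markers 12 were tested, 8 being higher and 4 lower, with a sum of 20820 and 5175 FPKM. Most of both sums came from S100a1 (15179 and 3617 FPKM) and Fbxo2 (5421 and 667 FPKM), which were among the 4 lower.

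RefSeq promoters on build GRCm38.p6, the build also called mm10, run from 250 bases before to 50 bases after a gene's start. They were found for 49 of the 59 members, with 79 entries. The promoters of Rbfox3, Ptbp1 and Srrm4 are shown because these genes stand for the lower, the higher and the near-silent tissue-specific regulators described below. Capitals mark the E-box CAGCTG, which reads the same on both strands, and the E-box CAGATG on either strand, the kind of site that basic helix-loop-helix factors such as Atoh1 bind.
Rbfox3, chr11:118760992-118761291, minus strand: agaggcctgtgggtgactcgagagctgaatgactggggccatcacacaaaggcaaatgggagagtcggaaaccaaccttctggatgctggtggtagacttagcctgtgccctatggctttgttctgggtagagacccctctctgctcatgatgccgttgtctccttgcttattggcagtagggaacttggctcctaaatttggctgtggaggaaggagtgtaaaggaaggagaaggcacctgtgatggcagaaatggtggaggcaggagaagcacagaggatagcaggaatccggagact
Ptbp1, chr10:79854182-79854481, plus strand: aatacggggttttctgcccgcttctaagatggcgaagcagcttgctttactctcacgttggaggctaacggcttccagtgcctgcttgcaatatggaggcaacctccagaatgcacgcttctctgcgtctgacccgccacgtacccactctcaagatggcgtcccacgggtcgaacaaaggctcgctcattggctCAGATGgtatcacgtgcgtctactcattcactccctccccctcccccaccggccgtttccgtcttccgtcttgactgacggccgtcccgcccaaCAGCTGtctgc
Srrm4, chr5:116591768-116592067, minus strand: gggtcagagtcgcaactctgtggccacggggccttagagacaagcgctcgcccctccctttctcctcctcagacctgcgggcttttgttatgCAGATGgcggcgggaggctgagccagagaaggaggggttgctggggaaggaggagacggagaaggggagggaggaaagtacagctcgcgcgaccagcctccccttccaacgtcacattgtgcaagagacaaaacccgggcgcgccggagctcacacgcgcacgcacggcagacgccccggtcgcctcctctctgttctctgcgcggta
The Rbfox3 entry held no E-box of either kind, the Ptbp1 promoter held 1 of each, and the Srrm4 promoter held 1 CAGATG. The Rbfox3 entry starts inside the gene, not at the outer end of its locus. CpG dinucleotides numbered 4 in the Rbfox3, 22 in the Ptbp1 and 25 in the Srrm4 promoter. Searched on both strands, CAGCTG was in 12 of the 79 member promoters (15.2%) against 16.3% of all 32851 RefSeq promoters of this length, and CAGATG in 9 (11.4%) against 17.2%. Some of the 79 entries are overlapping windows of the same gene. By gene, 8 of the 49 members held CAGCTG and 6 held CAGATG in any promoter. The median CpG count was 24 in member promoters and 7 in all, with 35 in Srsf promoters. It was 4 in the 3 Rbfox entries, which belong to Rbfox1 and Rbfox3. A match is a description of these letters and not evidence of a bound site.

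Of the 59 members, 50 were tested, 6 were above 0 in both groups but under 1 FPKM, Celf3 and Celf5 were listed at 0 in original hair cells only, and Rbfox1 was at 0 in both. New hair cells had the lower value in 34 of the 50 tested members, where 54.7% of all tested genes were lower, and the higher value in 16, where 45.3% were higher. A difference of 1 or more on the log2(FPKM + 1) scale, called 2-fold here, was found downward in 24 members, 48.0% against 34.9% of all tested genes, and upward in 5, 10% against 19.9%. The members' median difference was -0.88. Members that passed the filter only through the group where they were higher had to differ, so these shares are a description. The authors' deposited table gave 4 members an unadjusted p under 0.05, Celf4, Rbfox2, Rbfox3 and Sf3a3, all lower in new hair cells, where 8.83% of all tested genes were lower and 0.554% higher by that rule. None of the 4 passed after adjustment over all tested genes.

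These counts moved with how the columns were scaled. Quantile normalization, which gives both columns the same distribution, left 22 members 2-fold higher and 14 lower, where 31.9% and 26.1% of all tested genes were. Equal FPKM sums left 32 higher and 5 lower, against 69.6% and 15% of all tested genes. Trimmed-mean scaling, which centres the middle of the ratios, left 6 higher and 23 lower, against 26.2% and 32.1%. Trimmed-mean scaling and equal FPKM sums both raise the new column. A gene higher in new hair cells as deposited therefore stays higher under both, and only quantile normalization could turn it. On the deposited scale a pseudocount of 0.1 left 6 higher and 25 lower, against 26.8% and 39.1%, and a filter of 5 FPKM left 2 and 24, against 21.7% and 51.3%. Without a filter the counts stayed at 5 and 24, against 12.6% and 22.2%, and without rows that share a locus they were 4 and 16 of 39, against 19.6% and 34.6%.

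**Figure D1:**
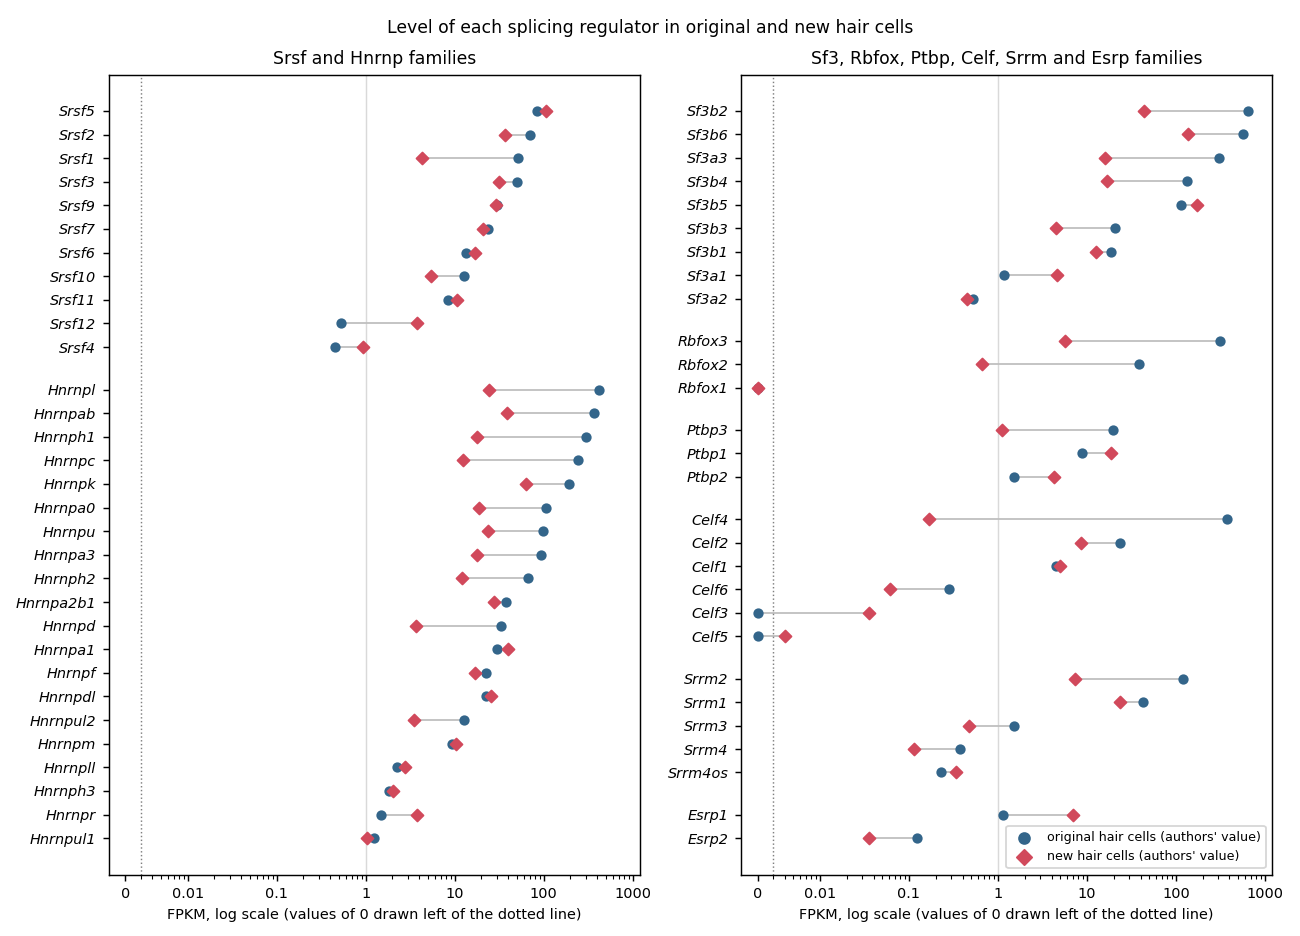
The FPKM of all 59 members is drawn on a log axis for original (circles) and new hair cells (diamonds), 1 value per group without error, ordered within each family by the original level. Most members above 100 FPKM in original hair cells lay far to the left in new hair cells, while Srsf genes other than Srsf1, Srsf10, Srsf12 and Srsf4 had both symbols within 2-fold of each other.

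Level in original hair cells went with the difference. Of 14 members with at least 100 FPKM there, 13 (92.9%) were at least 2-fold lower in new hair cells, and of all 1434 tested genes at that level 94.3% were. Of 23 members at 10 to 100 FPKM 11 were (47.8%), against 55.7% of 2065 tested genes. Of 13 members under 10 FPKM in original hair cells none was, against 11.7% of the 5527 tested genes at that level. On the log2(FPKM + 1) scale a tested gene at or below 1 FPKM cannot fall 2-fold, so this count was partly fixed by the measure. Srrm3, at 1.50 and 0.478 FPKM, was 3.13-fold lower by direct division but was not counted. Of these 13 members 11 were higher in new, against 63.8%. The members' share at least 2-fold lower was close to that of all tested genes in the top class. It was below it in the other classes, which held few members. The original level enters both the class and the difference, so they are not independent. Comparisons that stay the same when a whole column is multiplied by a constant are therefore given beside the folds. These are each gene's share of its family's summed FPKM, and its percentile of level among the tested genes of its own group. Quantile normalization keeps the order behind the percentiles but changes the shares and the ratios between genes. The shares and ratios are therefore not free of the dependence on level.

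The SR protein family differed little between the columns as deposited. Its 11 genes summed to 346 FPKM in original against 268 FPKM in new hair cells, 1.29-fold apart. The sums of all genes were 8.87-fold apart and those of the 3 Ptbp genes 1.24-fold. New hair cells had the higher value in 4 of 10 tested members and the lower in 6, against 45.3% and 54.7% of all tested genes. Within 2-fold stayed 7 members, where 4084 of the 9026 tested genes did. The median difference of the tested Srsf members was -0.12, close to the -0.21 of all tested genes. It turned to 0.22 with trimmed-mean scaling, 1.69 after quantile normalization and 2.98 with equal FPKM sums. The medians of all tested genes under these scalings were 0.06, 0.28 and 2.53. By percentile within each group 8 of the 10 stood higher in new hair cells, as did 27 of the 50 tested members. The same count was not made over all tested genes.

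Srsf5, an SR protein closely related to Srsf4 and Srsf6, was the most abundant, at 83.6 FPKM in original against 107 FPKM in new hair cells. It made up 24.1% of the family in original against 40.1% in new hair cells. Srsf6 stood at 13.5 and 16.9 FPKM, and Srsf11, a less typical family member, at 8.37 and 10.6 FPKM. These 3 were higher in new hair cells under all 4 scalings. The ratio of Srsf5 to Srsf6 was close in both groups, at 6.20 in original against 6.33 in new hair cells. Srsf2, which can both activate exons and act in transcription elongation, was at 70.9 and 36.6 FPKM. It was lower in new hair cells on the deposited and trimmed-mean scales and higher under the other scalings. Srsf3 (50.3 and 31.8 FPKM), Srsf7 (23.9 and 20.8 FPKM) and Srsf9 (30.2 and 29.1 FPKM) were each within 2-fold.

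Srsf1, the founding SR protein, stood apart from its family. It was at 51.5 FPKM in original against 4.24 FPKM in new hair cells, 12.1-fold lower, and the authors' deposited table gave p = 0.121. Its share of the family was 14.9% in original against 1.59% in new hair cells, and its percentile among tested genes was 79.1 and 53.9. It was lower in new hair cells under all 4 scalings. Srsf9, its closest relative, was below Srsf1 in original hair cells (Srsf1 1.71 times Srsf9) and 6.86 times above it in new hair cells.

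Srsf10 and Srsf12, a related pair that can repress exons, differed from each other. Srsf10 was at 12.8 and 5.38 FPKM, lower in new hair cells on the deposited scale and higher with equal FPKM sums. Srsf12 was at 0.535 FPKM in original against 3.74 FPKM in new hair cells, 6.99-fold higher, and at least 2-fold higher under all 4 scalings. The ratio of Srsf10 to Srsf12 was 23.9 in original against 1.44 in new hair cells. Srsf4 stayed under 1 FPKM in both groups, at 0.450 and 0.923 FPKM.

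The hnRNP family was lower in new hair cells as a sum, at 2062 FPKM in original against 366 FPKM in new hair cells. All 20 were tested, 14 being lower and 6 higher, with 11 at least 2-fold lower and none at least 2-fold higher on the log2(FPKM + 1) scale. Of all tested genes 54.7% were lower, 34.9% at least 2-fold lower and 19.9% at least 2-fold higher. The median difference was -1.60, and it turned to 1.38 with equal FPKM sums, where the median of all tested genes was 2.53. By percentile within each group 10 stood higher and 10 lower in new hair cells, a count not made over all tested genes. In original hair cells the order was led by Hnrnpl, Hnrnpab and Hnrnph1, and in new hair cells by Hnrnpk, Hnrnpa1 and Hnrnpab.

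Hnrnpl, which binds CA-rich elements, was the highest member in original hair cells at 419 FPKM and stood at 24.4 FPKM in new, 17.1-fold lower. Its share of the family was 20.3% in original against 6.67% in new hair cells. Hnrnpll, its close relative, was at 2.25 and 2.80 FPKM, so that the ratio of Hnrnpl to Hnrnpll was 186 in original against 8.72 in new hair cells. Hnrnpc, which binds uridine tracts, showed the lowest ratio of new to original in the family, at 244 and 12.4 FPKM or 19.6-fold lower, and the authors' deposited table gave p = 0.0769. It was at least 2-fold lower under all 4 scalings. Hnrnph1 and Hnrnpf both bind runs of guanine. Hnrnph1 was at 298 and 17.9 FPKM and Hnrnpf at 22.5 and 17.1 FPKM, a ratio of 13.2 in original against 1.04 in new hair cells. Hnrnph2, the X-linked copy, was at 67.4 and 12.0 FPKM, and Hnrnph3 at 1.81 and 2.01 FPKM. The Hnrnph3 locus in the table is shared with another row and spans 43.6 kb, against 9.55 kb in the GENCODE annotation.

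Hnrnpab, an RNA-binding relative of Hnrnpd, was at 369 and 39.1 FPKM, 9.45-fold lower. Its locus in the table is shared with another row and spans 22.1 kb, against 6.75 kb in the GENCODE annotation. Hnrnpd, which also controls decay of AU-rich messages, was at 33.4 and 3.65 FPKM, 9.15-fold lower. Both were lower under all 4 scalings, with differences of -0.09 and -0.04 on the log2 scale under equal FPKM sums. Hnrnpdl, the third of this group, went the other way at 22.3 and 25.8 FPKM. The ratio of Hnrnpd to Hnrnpdl was 1.50 in original against 0.142 in new hair cells.

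Among the hnRNP A and B proteins, repressors that bind many exons and introns, Hnrnpa1 was at 29.6 FPKM in original against 39.5 FPKM in new hair cells. Its share of the family was 1.43% and 10.8%. Hnrnpa2b1 was at 37.4 and 27.3 FPKM, while Hnrnpa3 (93.3 and 17.7 FPKM) and Hnrnpa0 (106 and 18.6 FPKM) were lower on the deposited scale and higher with equal FPKM sums. Hnrnpa1 shares its locus in the table with the predicted gene Gm10052, and Hnrnpa3 with Gm6793, so reads may be divided between them. Hnrnpk, a binder of cytosine-rich RNA, was the highest member in new hair cells, at 193 and 63.3 FPKM. Its locus in the table, also shared, spans 19.2 kb against 12.2 kb in the GENCODE annotation. Hnrnpk was lower in new hair cells on the deposited scale and higher after quantile normalization or with equal FPKM sums. Hnrnpu, a nuclear scaffold protein, was at 97.6 and 23.9 FPKM, with the same pattern of scalings. Hnrnpm stood at 9.38 and 10.3 FPKM and Hnrnpr at 1.49 and 3.75 FPKM, both higher in new hair cells under all 4 scalings. The remaining members, Hnrnpul1 and Hnrnpul2, were at 1.23 and 1.03 FPKM and at 12.7 and 3.49 FPKM.

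**Figure D2:**
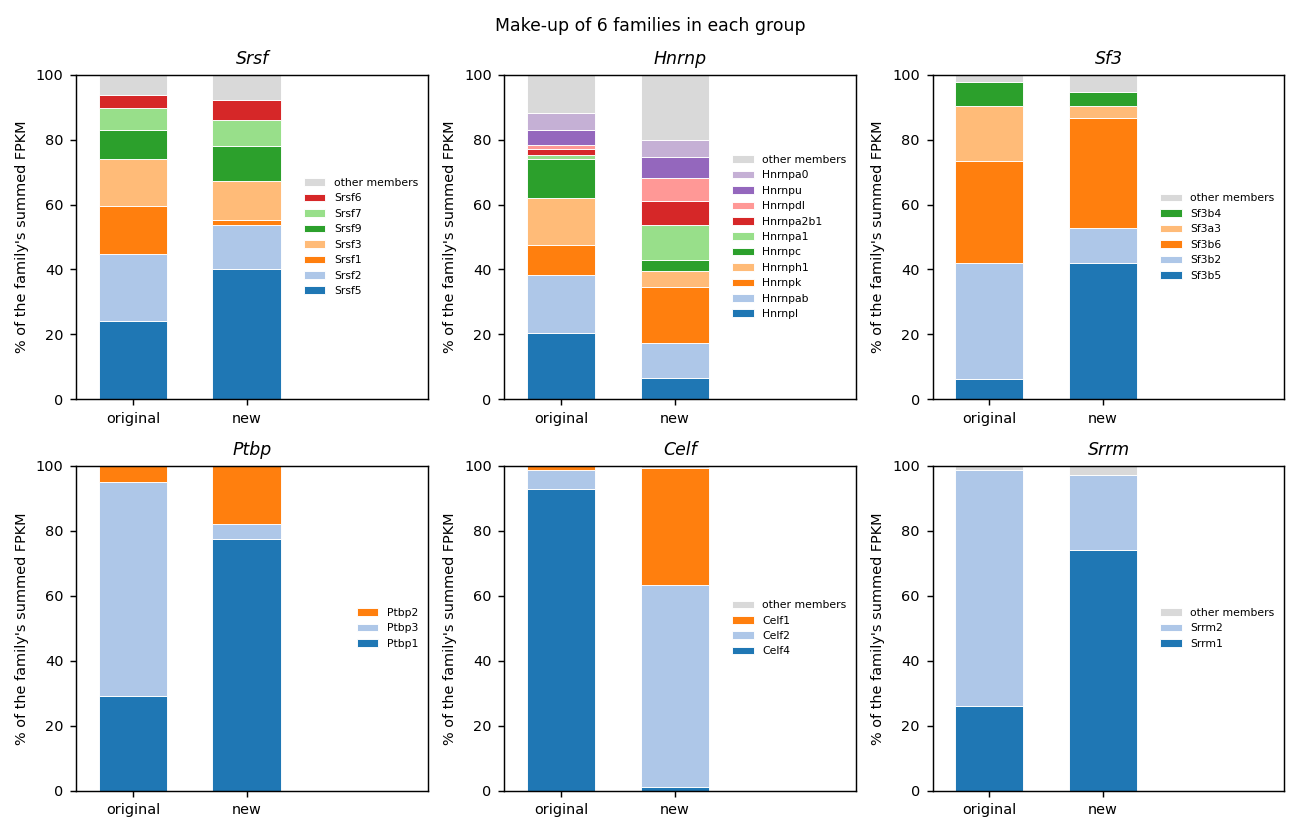
Stacked bars give each member's percent of its family's summed FPKM in original and new hair cells for 6 families, with members under 5% in both groups joined as other members. Srsf5, Hnrnpk, Sf3b5, Ptbp1, Celf2 and Srrm1 held the largest share in new hair cells, where Hnrnpl, Sf3b2, Ptbp3, Celf4 and Srrm2 had led in original hair cells and Srsf5 had led in both.

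Sf3a and Sf3b subunits assemble into single particles, but their transcripts differed widely in level. The 6 Sf3b genes summed to 1499 FPKM in original against 385 FPKM in new hair cells, and the 3 Sf3a genes to 309 and 21.0 FPKM. New hair cells had the lower value in 6 of 8 tested members and the higher in 2, against 54.7% and 45.3% of all tested genes. At least 2-fold lower were 5 and at least 2-fold higher 1, against 34.9% and 19.9%. The median was -2.02, turning to 1.00 with equal FPKM sums.

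Sf3b2, which contacts the RNA beside the branch point, was the highest of all members in original hair cells at 646 FPKM and stood at 44.1 FPKM in new, 14.6-fold lower. Sf3b6, which lies at the branch point adenosine, was at 567 and 137 FPKM. Sf3b5, a small subunit, was at 114 FPKM in original against 171 FPKM in new hair cells, the highest of all 59 members there. Its locus in the table spans 0.734 kb, against 3.84 kb in the GENCODE annotation. Of the Sf3 sum Sf3b5 took 6.31% in original against 42.0% in new hair cells, while Sf3b2 took 35.7% and 10.9%. Sf3b1, the subunit that clamps the branch helix, was at 18.4 and 12.7 FPKM, and Sf3b3 at 20.6 and 4.45 FPKM. Sf3b4 was at 133 and 16.8 FPKM, lower except with equal FPKM sums.

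Sf3a3 was at 307 and 15.9 FPKM, 19.3-fold lower, and the authors' deposited table gave p = 0.0477. It was at least 2-fold lower under all 4 scalings and shares its locus in the table with another row. Sf3a1, its partner in the same complex, went the other way at 1.16 FPKM in original against 4.58 FPKM in new hair cells, 3.96-fold higher and at least 2-fold higher under all 4 scalings. Sf3a2, the third subunit, was under 1 FPKM in both groups (0.522 and 0.449 FPKM). The order of the 3 levels, Sf3a3 above Sf3a1 above Sf3a2, was the same in both groups.

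The Rbfox genes, whose proteins bind UGCAUG and regulate exons in neurons, muscle and some epithelia, were among the members with the lowest ratio of new to original. Rbfox3, the gene of the neuronal antigen NeuN (chromosome 11, 118489760 to 118911597 on mm10), had 309 FPKM in original against 5.63 FPKM in new hair cells, 54.9-fold lower, and the authors' deposited table gave p = 0.0266. Rbfox2, the broadly expressed member (chromosome 15, 77078990 to 77307053), stood at 38.8 and 0.657 FPKM, 59.0-fold lower, and the authors' deposited table gave p = 0.0218. Both were at least 2-fold lower under all 4 scalings, with -2.61 and -2.54 on the log2 scale under equal FPKM sums. Their ratio was close in both groups, Rbfox3 being 7.97 times Rbfox2 in original and 8.57 times in new hair cells. Rbfox2 shares its locus in the table with another row, and Rbfox1 was listed at 0 in both groups. The percentile of Rbfox2 among tested genes was 76.9 in original against 9.48 in new hair cells.

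The Celf family was dominated by a single member in original hair cells. Celf4, a neuronal regulator of RNA stability and splicing (chromosome 18, 25477620 to 25753983), was at 373 FPKM in original against 0.168 FPKM in new hair cells, and the authors' deposited table gave p = 0.00455. This was the largest difference of any tested member on the log2(FPKM + 1) scale, at -8.32, and it was -7.23 with equal FPKM sums. Celf4 made up 92.9% of the family in original against 1.20% in new hair cells, and its percentile was 92.0 and 3.23. Celf2, broadly expressed in brain and muscle, was at 23.6 and 8.67 FPKM, and Celf1, near-ubiquitous, at 4.45 and 5.04 FPKM. Celf2 was lower in new hair cells except with equal FPKM sums. The other neural members were near 0: Celf6 was at 0.280 and 0.0608 FPKM, Celf3 was listed at 0 in original and 0.0352 FPKM in new, and Celf5 at 0 and 0.00404 FPKM.

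Markers of other cell types also differed beside Rbfox2, Rbfox3 and Celf4. Of 11 spiral ganglion neuron markers 3 were tested, with Nefl and Nefm lower and Snap25 higher in new hair cells, and the summed level of all 11 was 3222 FPKM in original against 7.88 FPKM in new hair cells. Nefl, a neurofilament subunit, gave 3214 FPKM of the former sum. The other defining markers were low in both groups, with Tubb3 at 0.494 and 0.349 FPKM, Stmn2 at 0.333 and 0.261 FPKM and Neurod1 at 0 in both, while Prph and Thy1 were at 0 in new hair cells only. Mesenchyme markers summed to 2130 and 416 FPKM, with 6 of 9 tested lower in new hair cells. Otor gave 1383 FPKM of the former sum and Lum 375 FPKM of the latter. Schwann cell and glia markers summed to 1073 and 307 FPKM, with 4 of 7 tested lower and 3 higher. Cnp gave 983 FPKM of the former sum and Fabp7, a higher marker, 278 FPKM of the latter. Macrophage and immune markers summed to 8.18 and 101 FPKM, with 2 of 3 tested higher. These 2 were Tyrobp (3.24 and 71.7 FPKM) and Fcer1g (1.83 and 28.7 FPKM), while C1qb was lower. Each sum therefore rested mostly on few genes. The part of these cell types in the values of the splicing regulators was not tested.

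The polypyrimidine tract binding proteins repress exons flanked by pyrimidine-rich elements, and in the nervous system Ptbp1 gives way to Ptbp2 as neurons form. Ptbp1 was at 8.69 FPKM in original against 18.6 FPKM in new hair cells, 2.14-fold higher. Ptbp2 was at 1.52 and 4.32 FPKM, 2.85-fold higher. Ptbp3, best known from blood cells, was at 19.6 and 1.11 FPKM, 17.7-fold lower, and the authors' deposited table gave p = 0.0698. Ptbp1 and Ptbp2 were at least 2-fold higher and Ptbp3 was lower under all 4 scalings. Ptbp3 held 65.8% of the family in original hair cells and Ptbp1 held 77.4% in new. Ptbp1 exceeded Ptbp2 in both groups, 5.74 times in original and 4.30 times in new hair cells. The ratio of Ptbp1 to Ptbp3 was 0.443 in original against 16.7 in new hair cells. In the table Ptbp1 shares a locus of 672 kb with other genes, although the gene spans 10.3 kb in the GENCODE annotation, so its value may hold reads assigned among neighbours.

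**Figure D3:**
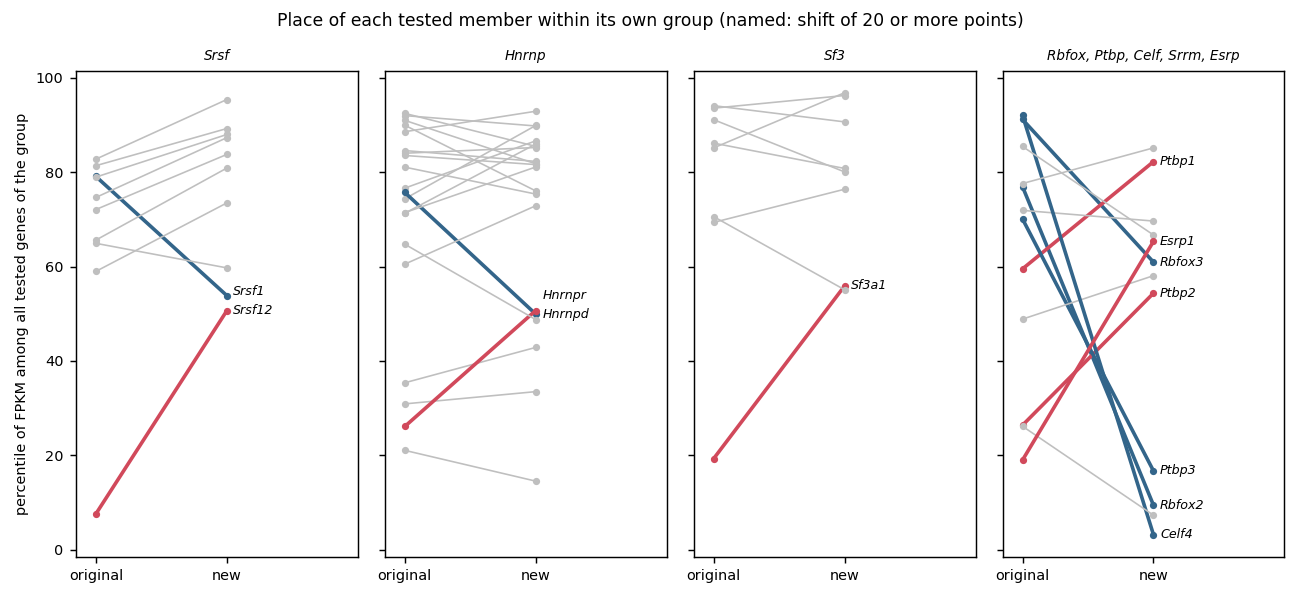
Lines join the percentile of each of the 50 tested members among all tested genes of original and of new hair cells, with a name where the shift was 20 points or more. There were 6 such shifts in each direction: Srsf12, Hnrnpr, Sf3a1, Ptbp1, Ptbp2 and Esrp1 upward, and Srsf1, Hnrnpd, Rbfox2, Rbfox3, Ptbp3 and Celf4 downward. Of all tested genes 23.5% shifted upward and 21% downward by as much.

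Srrm1 and Srrm2 are general coactivators that bridge SR proteins to the spliceosome. Srrm1 was at 42.9 FPKM in original against 23.8 FPKM in new hair cells, and Srrm2 at 119 and 7.44 FPKM, 16.0-fold lower. Srrm2 was lower under all 4 scalings and shares its locus in the table with Tceb2. Srrm1 held 26.2% of the family in original against 74.0% in new hair cells, the reverse of Srrm2 (72.5% and 23.1%). The neural members were low in both groups. Srrm3 was at 1.50 and 0.478 FPKM, and Srrm4 (chromosome 5, 116438722 to 116591817) at 0.374 and 0.113 FPKM. Srrm4os, at 0.229 and 0.334 FPKM, has the same locus in the table, and no source used here says whether counting used strand, so the values of Srrm4 and Srrm4os may not be separable. Rest, the repressor of neuronal genes whose splicing Srrm4 controls in hair cells, was at 10.2 FPKM in original against 1.38 FPKM in new hair cells.

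Esrp1 (chromosome 4, 11331933 to 11386783) promotes epithelial exons such as that of Fgfr2. It was at 1.14 FPKM in original against 6.98 FPKM in new hair cells, 6.14-fold higher, and the authors' deposited table gave p = 0.188. At 1.90 on the log2(FPKM + 1) scale this was the largest difference in that direction among tested members, and it was at least 2-fold higher under all 4 scalings. Its percentile was 19.0 in original against 65.3 in new hair cells. Esrp2, its paralogue, was under 1 FPKM in both groups (0.124 and 0.0359 FPKM). Fgfr2 itself was at 0.0893 and 0.0836 FPKM.

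**Figure D4:**
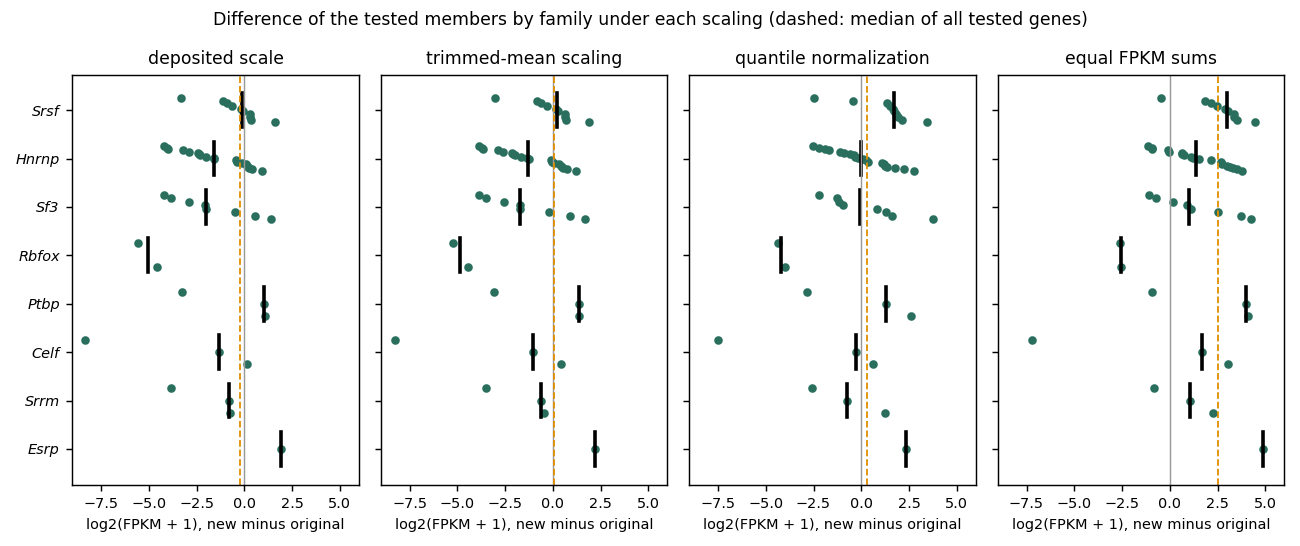
Points are the 50 tested members by family, as log2(FPKM + 1) of new minus original, under the deposited scale and 3 other scalings, with a bar at the family median and a dashed line at the median of all tested genes. Both Rbfox genes and Celf4 lay below 0 in each panel, Esrp1, Ptbp1 and Ptbp2 above 0, and the Srsf median moved from -0.12 to 2.98.

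Across the 4 scalings 16 of the 50 tested members were higher in new hair cells under each of them, 13 were lower under each, and the direction of 21 depended on the scaling. Of all tested genes 45.2% were higher and 22.1% lower under each. As deposited alone 45.3% were higher, so being higher under all 4 added little to the deposited direction. At least 2-fold lower under each scaling were 5 members, Hnrnpc, Sf3a3, Rbfox2, Rbfox3 and Celf4, where 14.9% of all tested genes were. At least 2-fold higher under each were 5 members, Srsf12, Sf3a1, Ptbp1, Ptbp2 and Esrp1, where 19.8% of all tested genes were. Both counts make up 10% of the tested members, below the shares of all tested genes. These are directions of 1 value per group and carry no replicate check.

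Other parts of the splicing machinery were examined by lists. Of all tested genes 34.9% were at least 2-fold lower and 19.9% at least 2-fold higher, with a median of -0.21. Counting any difference, 54.7% were lower and 45.3% higher. Of 19 Sm and U snRNP proteins, which form the core of the spliceosomal particles, 12 had the lower and 7 the higher value in new hair cells, 10 at least 2-fold lower and 4 at least 2-fold higher, with a median of -1.71. Snrpb was at 4747 and 47.7 FPKM and Snrnp200, the helicase that unwinds U4 from U6, at 293 and 2.73 FPKM, while Snrpc, a U1 protein, was at 30.9 and 178 FPKM. Of 12 tested Lsm proteins 6 were at least 2-fold lower and 4 at least 2-fold higher, with a median of -1.79. Lsm7 was the highest at 8609 and 750 FPKM, Lsm1 was lowest in ratio at 276 and 3.11 FPKM, and Lsm10 at 7.66 and 54.0 FPKM. Among 31 tested tri-snRNP and catalytic proteins 12 were at least 2-fold lower and 3 at least 2-fold higher, with a median of -0.46. Cwc15 stood at 804 and 37.5 FPKM and Bud31 at 15.5 and 62.3 FPKM.

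Factors that recognise the end of the intron beside Sf3a and Sf3b were split, with 6 of 11 tested members at least 2-fold lower and 4 at least 2-fold higher, with a median of -1.18. The subunits of U2AF, which binds the pyrimidine tract and the terminal AG, went opposite ways: U2af2 was at 86.6 and 2.78 FPKM, and U2af1 at 24.3 and 123 FPKM. Rbm17 had the highest mean, at 128 and 56.1 FPKM. Phf5a, a component that joins Sf3b, was at 160 and 5.74 FPKM, and Zrsr2 at 1.07 and 9.89 FPKM.

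SR-related proteins and exon junction partners were at least 2-fold lower in 13 of 25 tested cases and at least 2-fold higher in 2, with a median of -1.31. Tra2a, a cofactor of SR proteins, was at 706 and 6.45 FPKM, where the authors' deposited table gave p = 0.0465, and Tra2b, its paralogue, at 48.7 and 9.30 FPKM. By that unadjusted p 2 genes of this list were under 0.05. So were 3 Sm and U snRNP, 2 Lsm, 2 intron-end and 1 tri-snRNP genes. All were lower in new hair cells, where 8.83% of all tested genes were lower by that rule, and none passed after adjustment. Magohb was at 4.61 and 17.1 FPKM. Of 8 tested SR protein kinases 3 were at least 2-fold lower and 1 at least 2-fold higher, with a median of -0.47. Srpk1, which phosphorylates SR proteins in the cytoplasm, was at 67.8 and 7.78 FPKM and Srpk2 at 1.30 and 4.16 FPKM. The nuclear kinases Clk1 and Clk4 were at 9.64 and 15.6 FPKM and at 6.03 and 3.77 FPKM.

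Of 39 other tested RNA-binding regulators of splicing 19 had the lower and 20 the higher value in new hair cells, 16 at least 2-fold lower and 7 at least 2-fold higher, with a median of 0.00. That median was -2.25 with a filter of 5 FPKM and 2.62 with equal FPKM sums. Rbm24, a regulator expressed in hair cells and muscle, was at 334 and 31.4 FPKM. Rbm3, a cold-induced protein, had the highest mean at 1687 and 166 FPKM. Pcbp4 was at 1260 and 41.1 FPKM. Mbnl1 and Mbnl2, which promote mature splicing patterns, were within 2-fold at 1.19 and 1.33 FPKM and at 3.31 and 3.99 FPKM, and Mbnl3 was at 0.123 and 0.0498 FPKM. The neuronal regulators Nova1 and Nova2 were under 1 FPKM in both groups. The medians of the Sm, Lsm and intron-end lists turned to 0.66, 0.35 and 1.08 after quantile normalization, so their direction depends on the scaling. Atoh1, the induced factor, was at 791 and 83.4 FPKM, and the table does not separate transgene from endogenous transcript.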

How the data were processed

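Per the submitters' processing notes, reads passed through CASAVA 1.8, Trimmomatic and TopHat on build mm10. What computed the FPKM values is unstated there. The deposited table held FPKM as 1 value per gene and group, so how the 2 libraries of a group were combined is unknown, and depth per library is unknown. The deposited table also held an unadjusted p-value per gene, from a test not named in these sources, and a log2 ratio made by the authors. That ratio matched the FPKM columns within 0.01 for all members above 0 in both groups.

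Members and lists were chosen with earlier results of these data known. Differences were log2(FPKM + 1), new minus original, over the 9026 genes reaching 1 FPKM in either group and above 0 in the other. The pseudocount understates the change of low genes, while single-gene folds divide the FPKM values directly. The limma test, the replicate block and left-out replicates that had been planned need a value per library, so they were not run and no p-value was computed here. The settings varied were the pseudocount (0.1), the filter (none, or 5 FPKM), trimmed-mean scaling (dropping 30% by ratio plus 5% by level at each end), quantile normalization, equal FPKM sums, and the omission of rows with a shared locus. The scalings were tested on simulated data.

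Named genes were all members of the 5 small families, in Srsf, Hnrnp and Sf3 the 2 of highest mean and the 3 largest differences each way with at least 5 FPKM, those with p under 0.05, and in each list the highest mean and both extremes. Some genes that this rule names are not reported here. Other members named, and the pairs whose ratios are given, were chosen after their values were seen. Of the 59 members 16 share their locus with another row. Several Hnrnp genes have processed pseudogenes that can take reads. Locus starts were raised by 1 base, since 3117 of 6751 loci with the same end as GENCODE M21 then had the same start. The content of 1 emptied line was not analysed here. Scripts ran in Python 3.11.15 with pandas 2.3.3 and numpy 2.4.6; figures were drawn with matplotlib 3.10.9.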

Additional observations from a re-analysis of the deposited data

How the results depend on the processing

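Members 2-fold or more higher in new hair cells numbered 5, and moved to 2 with a filter of 5 FPKM, 22 after quantile normalization and 32 with equal FPKM sums. The count at least 2-fold lower was 24, and moved to 14 after quantile normalization and 5 with equal FPKM sums, where 26.1% and 15% of all tested genes were lower by that rule. The median difference of -0.88 was -1.09 with a pseudocount of 0.1, -0.57 without a filter, -1.60 with a filter of 5 FPKM, -0.61 with trimmed-mean scaling, -0.64 without rows that share a locus, and turned to 0.28 after quantile normalization and 2.00 with equal FPKM sums. Against the median of all tested genes its difference was -0.67 on the deposited scale, -0.53 with equal FPKM sums and 0.00 after quantile normalization. By construction equal FPKM sums add 3.15 to every log2 ratio of FPKM, and less than that to differences of log2(FPKM + 1). For the other settings the cause was not tested.

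With equal FPKM sums the medians turned to 1.38 for Hnrnp, 1.00 for Sf3, 1.66 for Celf, 1.40 for Sm and U snRNP proteins, 1.23 for Lsm proteins, 1.95 for intron-end recognition, 1.53 for SR-related proteins, 2.98 for Srsf, 1.07 for Srrm, 2.17 for tri-snRNP proteins and 2.20 for SR protein kinases. Quantile normalization turned those of Sm and U snRNP proteins to 0.66, Lsm proteins to 0.35, Srsf to 1.69 and intron-end recognition to 1.08, which was 0.16 without a filter. The Ptbp median of 1.01 became -1.14 under the 5 FPKM filter and -1.11 when rows sharing a locus were dropped, where 2 members remained in each. The direction of 21 members turned from lower to higher with equal FPKM sums. Of these, 10 were within 2-fold on the deposited scale, and the 11 that had been at least 2-fold lower were Srsf10 (1.82), Hnrnpa0 (0.64), Hnrnpa3 (0.74), Hnrnph2 (0.65), Hnrnpk (1.54), Hnrnpu (1.11), Hnrnpul2 (1.23), Sf3b3 (0.91), Sf3b4 (0.16), Sf3b6 (1.09) and Celf2 (1.66). After quantile normalization 11 turned, 8 of them within 2-fold before, and the other 3 were Hnrnpk (1.22), Hnrnpu (0.23) and Sf3b6 (1.27). Trimmed-mean scaling turned 3 members within 2-fold. No paired analysis was possible because the table holds 1 value per group and no value per library. Leaving out a replicate was not run for the same reason, and depth is unknown, so members near 0 have no detection limit.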
